A study of Homo sapiens with 11 samples.

Results

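The ERV1 repeats described here are class I endogenous retroviruses other than the LTR12 and HERV9, HERVH and LTR7, and MER41 families. They were picked by name alone from a deposited table of repeat elements: 157794 of 5622516 elements, in 276 of the table's families. Of these elements 35908, in 61 families, carry "-int" in their name and are internal regions, the part of a provirus that encodes its proteins. The other 121886, in 215 families, are long terminal repeats (LTRs). A family in this text is all elements with 1 name, and an element is 1 row of the table, named by its family and a number that several rows can share and whose meaning the sources used here do not give.

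The cells were HCT116, an established human colorectal cancer line. They received siRNA to luciferase (siLuc, the control) or to Staufen1 (siStau1), which binds RNA duplexes, and, for 5 days, DMSO or 500 nM decitabine (DAC), a drug that lowers DNA methylation. RNA pulled down with J2, which recognises RNA duplexes, gave 3 libraries, namely siLuc with DMSO, siLuc with DAC and siStau1 with DAC, and total RNA gave 4 groups of 2 libraries. The protocol shared by all labels names an antibody to Staufen1 for the enrichment, whereas the labels of the single libraries name J2, so the antibody is uncertain. J2 RNA of siStau1 DMSO was not analysed here, so the siRNA can be compared under DAC only, and siStau1 DAC against siLuc DMSO differs in both siRNA and drug. Below, 3 values of an element or family stand in the order siLuc DMSO, siLuc DAC, siStau1 DAC, and "with DAC" means siLuc DAC over siLuc DMSO. With 1 library per group no J2 difference has a replicate check or a test, and intervals of shares and of single elements cover counting error only, with each 2 reads taken as 1 draw. Intervals of medians describe the spread over the elements of these libraries, which are no replicates of a condition, and test nothing.

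A complete provirus has an LTR at each end of an internal region with the gag, pol and env genes. Recombination between both LTRs removes the internal region and leaves a solitary LTR, which is why LTRs outnumber internal elements in the genome. LTRs hold the promoter and the polyadenylation signal, and DNA methylation is 1 of the ways cells keep them silent. Transcripts of inverted or oppositely transcribed copies can pair into double-stranded RNA, which innate immune sensors recognise.

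The repeat tables give no genome positions or sequences. As an example of the DNA before a start of an ERV1 gene, the 250 bases before a RefSeq start of ERV3-1 are printed, the envelope gene of the HERV3 provirus (HERV-R), whose LTRs are named LTR4 and whose internal element is described below. The sources used here do not say which repeat lies in this window. The window lies within the gene, which spans 64990809 to 65006743 on the minus strand of chromosome 7 (GRCh38, GENCODE release 29).
ERV3-1, chr7:64999443-64999692, GRCh38.p14, minus strand: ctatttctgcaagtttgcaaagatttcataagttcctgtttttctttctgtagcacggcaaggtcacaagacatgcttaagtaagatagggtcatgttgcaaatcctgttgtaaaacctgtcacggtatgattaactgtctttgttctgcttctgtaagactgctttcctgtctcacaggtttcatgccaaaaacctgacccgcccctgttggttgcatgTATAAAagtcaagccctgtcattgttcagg
The capitals mark TATAAA, the core of a TATA box, which begins 30 bases before the start. TATAAA was found on either strand in 10.7% of 35116 RefSeq promoter windows of this length. CCAAT, searched on both strands in the same way, was not in this window and was in 32.0% of all windows. The gene's other RefSeq start, at 65006687, has the reverse in its window, 2 CCAAT and 0 TATAAA. These matches describe letters only.

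The remaining ERV1 families held 0.935%, 1.23% and 1.22% of J2 reads on repeats. Internal families had 175842 reads (0.246%, Wilson 95% bounds 0.244% and 0.248%), 239812 (0.348%, 0.346% to 0.350%) and 292513 (0.352%, 0.350% to 0.354%). LTR families had 492082 (0.688%, 0.686% to 0.691%), 609907 (0.885%, 0.882% to 0.888%) and 723390 reads (0.871%, 0.868% to 0.874%). Both kinds thus held a larger share in both DAC libraries, and the DAC libraries differed less from each other than from siLuc DMSO. Over reads outside SINE elements, the short repeats that include Alu, the internal share was 0.634%, 0.723% and 0.857% and the LTR share 1.78%, 1.84% and 2.12%, so there the highest share was in siStau1 DAC. The SINE share of all repeat reads differs between libraries, and its part in the first set of values was not tested.

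Internal elements made up 22.8% of the elements and 26.3% (26.2% to 26.5%), 28.2% (28.1% to 28.4%) and 28.8% (28.7% to 28.9%) of the reads. This share does not depend on how libraries are scaled. Element lengths were not used here, so reads of internal and LTR elements are not levels per length.

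Reads lay on few elements. No read was seen in any of the 3 libraries for most of them: 8417 internal (23.4%) and 33952 LTR elements (27.9%) had at least 1, against 34.4% of all repeat elements. As few as 137, 167 and 147 elements held 50% of the internal reads. For LTRs the corresponding numbers were 603, 798 and 821 elements. The 10 internal elements with most reads held 17.9%, 12.5% and 16.0% of internal reads, and the 10 such LTRs 9.70%, 10.3% and 10.2% of LTR reads. The sets differ in size, so these numbers do not compare their concentration.

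Element ratios are log2 of scaled reads: 0.5 was added to each read number, the scale was the library's sum over all repeats, and an element needed 20 reads over the pair of libraries. Between siLuc DAC and siLuc DMSO the median of 2168 internal elements was 0.72 (95% order-statistic interval 0.66 to 0.79) and that of 7755 LTR elements 0.68 (0.65 to 0.71), while the median of all 604858 repeat elements was 0.01. The values of both kinds lie close together. Another scaling shifts every log2 ratio by a constant. The authors' library factors add 0.89 with DAC, −0.32 for siStau1 DAC over siLuc DAC and 0.57 for siStau1 DAC over siLuc DMSO, and reads outside SINE add −0.31, 0.23 and −0.08. The order of families within a comparison is the same under each, while the sign of a ratio smaller than such a shift is not. Of internal elements 893 (41.2%) were at least 2-fold higher and 254 (11.7%) at least 2-fold lower in siLuc DAC. Of LTR elements 3140 (40.5%) were higher and 980 (12.6%) lower by that measure. Among all repeat elements 21.3% were at least 2-fold higher and 17.0% at least 2-fold lower. Most of these, 395119 of 604858, were SINE elements, with a median of −0.25, 10.7% at least 2-fold higher and 20.8% lower. At least 2-fold higher were 46.2% of LINE, 36.5% of ERVL and 33.8% of ERVK elements. The distance of ERV1 elements from all repeat elements is thus largely one from SINE elements. A higher level with DAC was not particular to these families: medians were 0.61 for ERVL elements, 0.57 for ERVK and 0.86 for LINE elements, and −0.02 for the ERV1 families left out here.

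Between siStau1 DAC and siLuc DAC, the medians were slightly below 0: −0.15 for 2526 internal elements (−0.18 to −0.10) and −0.13 for 9050 LTR elements (−0.16 to −0.10), against 0.03 for all 644672. At least 2-fold higher in siStau1 DAC were 433 internal (17.1%) and 1626 LTR elements, against 15.5% of all elements. At least 2-fold lower were 545 internal (21.6%) and 1829 LTR elements (20.2%), against 14.8%. Medians were also below 0 for ERVL (−0.06), ERVK (−0.11) and LINE elements (−0.38), and 0.38 for the ERV1 families left out here. Scaled to reads outside SINE, the internal median turned to 0.08 and the LTR median to 0.09, so the direction of this comparison follows the scaling.

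Between siStau1 DAC and siLuc DMSO, the median was 0.55 for 2213 internal elements (0.52 to 0.60) and 0.46 for 8142 LTR elements (0.44 to 0.49), against 0.04 for all 622296. Without the MER52 families, which are described below, the LTR median was 0.54, close to the internal one. At least 2-fold higher were 656 internal (29.6%) and 2356 LTR elements (28.9%), against 14.5% of all elements. This too was not particular to these families: 28.5% of ERVL (median 0.49), 23.9% of ERVK (0.42) and 27.3% of LINE elements (0.39) were at least 2-fold higher. At least 2-fold lower were 76 internal (3.43%) and 399 LTR elements (4.90%), against 8.27%. Of all 622296 elements 418053 were SINE elements, of which 8.42% were at least 2-fold higher and 9.68% lower. At least 2-fold lower were 4.78% of ERVL, 4.06% of ERVK and 5.89% of LINE elements.

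**Figure D1:**
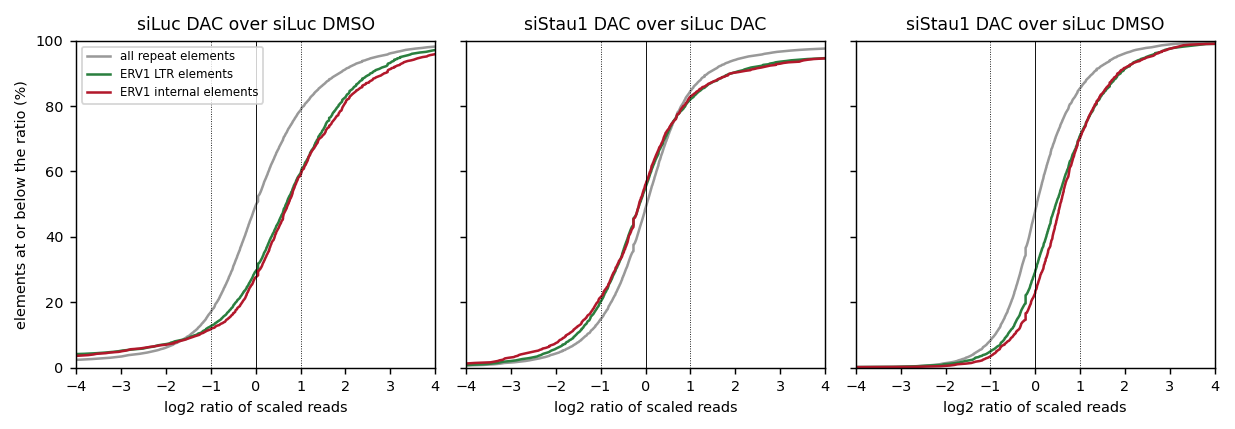
Cumulative share of elements (y axis, %) at or below a log2 ratio of scaled J2 reads (x axis) for internal ERV1 elements, LTR ERV1 elements and all repeat elements, with dotted lines at 2-fold. With DAC over DMSO both ERV1 curves lie to the right of the curve of all elements over most of the range (medians 0.72 and 0.68 against 0.01), and the 2 ERV1 curves nearly coincide. Of all 604858 elements in that comparison 395119 are SINE elements, with a median of −0.25.

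By family, 232 of 262 compared families (200 reads or more in the pair) were higher with DAC, 53 of 60 internal and 179 of 202 LTR families. Of all named repeat families 1025 of 1175 (87.2%) were, so this count (88.5%) is near the background, as are the medians (0.68 here and 0.70 over all). At least 2-fold higher were 66 of 262 families, 16 of 60 internal and 50 of 202 LTR families. Of all named repeat families 371 of 1175 (31.6%) were, a larger share than here. At least 2-fold lower were HERV-Fc1-int, HERV-Fc2-int, HERV-Fc1_LTR1 and LTR21C, 4 families, against 1.02% of all. These rest on few elements. HERV-Fc1-int has 6 and HERV-Fc2-int 5, with 86.7% and 92.8% of their siLuc DMSO reads on 1 element. HERV-Fc1_LTR1 had 4 and LTR21C 2 elements with enough reads for this comparison. In siStau1 DAC against siLuc DAC, 94 of 263 families (35.7%) were higher, 22 of 60 internal and 72 of 203 LTR families, where 356 of 1191 of all named families (29.9%) were. HERV-Fc1-int, HERV-Fc2-int, LTR38-int, MER52-int, HERV-Fc1_LTR1 and LTR21C were at least 2-fold higher (1.09% of all families were) and MER101-int, EUTREP7, LTR37B and LTR6A at least 2-fold lower (1.68%). In siStau1 DAC against siLuc DMSO, 252 of 263 (95.8%) were higher, 58 of 60 internal and 194 of 203 LTR families, where 1063 of 1173 of all named families (90.6%) were. There 11 of 263 were at least 2-fold higher, a smaller share than the 84 of 1173 (7.16%) of all families. At least 2-fold lower were 0, against 0.0853%.

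Among internal families HERV17-int, the internal region of the HERV-W group that includes the syncytin-1 provirus, had the most reads: 15221, 18320 and 22766 reads. Its log2 ratio was 0.32 with DAC and 0.05 for siStau1 DAC over siLuc DAC. MER61-int had 8406, 14347 and 14667 reads, a ratio of 0.82 with DAC and −0.24 for siStau1 under DAC. Harlequin-int had 8899, 12421 and 14240 reads and HERVE-int, of the HERV-E group, 9233, 12222 and 14010. HUERS-P3-int (5955, 8530 and 10796 reads), HERVIP10B3-int (5314, 8780 and 9830) and MER4-int (4871, 8001 and 8603) complete the order apart from MER57A-int and 2 HERV-IP10 families described below. In all 7 of these families both DAC libraries stood above siLuc DMSO, with DAC ratios from 0.32 to 0.82.

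**Figure D2:**
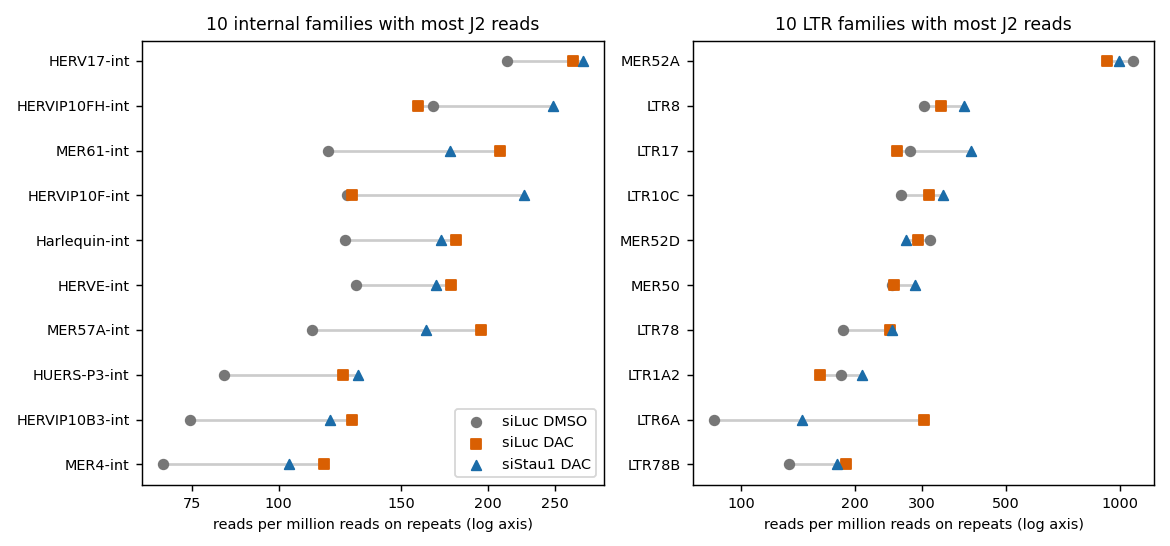
J2 reads scaled to the library total on repeats (RPM, log x axis) of the 10 internal and 10 LTR families with most reads, 1 point per library. HERVIP10FH-int, HERVIP10F-int and LTR17 have both siLuc points close together and siStau1 DAC to the right, and MER52D has siLuc DMSO farthest to the right, as does MER52A, an order that the authors' factors would change.

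The highest DAC ratios among internal families with at least 1000 reads, in which no element held 50% of the reads, belonged to less abundant families. MER101-int had 537, 2137 and 1243 reads, a DAC ratio of 2.04. HUERS-P3b-int had 2775, 8521 and 6695 reads (1.67), LTR37-int 575, 1666 and 1045 (1.59), MER34B-int 1864, 5115 and 3634 (1.51) and ERV24B_Prim-int 443, 1193 and 974 (1.48). In all 5 the order was siLuc DAC highest, siStau1 DAC next and siLuc DMSO lowest. MER101-int, LTR37-int and MER34B-int were also lowest in siStau1 DAC over siLuc DAC, with ratios of −1.05, −0.94 and −0.76, followed by MER65-int (460, 1088 and 851 reads, −0.62) and MER31-int (1808, 4510 and 3540 reads, −0.62); these comparisons share the siLuc DAC library. The DAC difference was spread over elements: 22 of 25 MER101-int elements were higher in siLuc DAC (median 2.33), as were 51 of 60 of HUERS-P3b-int (1.16), 29 of 33 of LTR37-int (2.08) and 22 of 26 of MER34B-int (1.75).

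At the other end stood MER52-int, with 2627, 1395 and 4079 reads, a DAC ratio of −0.86 (0.03 under the authors' factors) and a siStau1 ratio under DAC of 1.28. HERVFH19-int had 2343, 2036 and 3425 reads (−0.15 and 0.48), up to 40.9% of them on 1 element, and 15 of its 21 elements were higher with DAC (median 0.41), opposite in sign to the sum. HERVIP10FH-int, of the HERV-IP10 group, had 11914, 10929 and 20599 reads (−0.07 and 0.65), HERVIP10F-int 8962, 8779 and 18735 (0.02 and 0.83) and HERVE_a-int 3414, 3359 and 4834 (0.03 and 0.26). Over HERVE_a-int elements 12 of 30 were higher with DAC (median −0.13), and over those of MER52-int 13 of 33 (−0.54, interval −2.41 to 0.17). Without 6 MER52-int elements that had 0 reads in siLuc DAC and at least 20 in each other library, the MER52-int median was −0.15. In these 5 families siStau1 DAC was highest in scaled reads, and both siLuc libraries lay close together, MER52-int excepted. Under the authors' factors all 5 DAC ratios were above 0, and siStau1 DAC was below siLuc DAC in HERVE_a-int. PRIMA41-int was also among the highest in siStau1 DAC over siLuc DAC (2315, 2637 and 3981 reads, 0.33). Over the elements of HERVIP10F-int, 42 of 66 were higher in siStau1 DAC than in siLuc DAC (median 0.48) and in HERVIP10FH-int 43 of 73 (0.14), against 1111 of all 2526 internal elements (44.0%). In siStau1 DAC over siLuc DMSO, HUERS-P3b-int (1.05), MER101-int (0.99), MER89-int (947, 1822 and 2144 reads, 0.96), MER92-int (1113, 2913 and 2515, 0.96) and ERV24B_Prim-int (0.92) were highest. HERV15-int (493, 809 and 643 reads, 0.17), LTR46-int (1063, 1173 and 1493, 0.27), PABL_A-int (1937, 3373 and 2731, 0.28), HERVE_a-int (0.29) and HERVFH19-int (0.33) were lowest.

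Several HERV-IP10 rows, 1 of them among the internal elements with most reads, stood in 1 run of the table. The tables list elements in an order in which LTRs stand beside internal regions of their own lineage, although the sources used here do not state the order. In a run of 12 rows, an LTR10F opened and another closed a stretch of HERVIP10F-int and HERVIP10FH-int rows that also held an LTR17 and 2 Alu elements. That LTR17 had 3417, 2082 and 5493 reads. The HERVIP10FH-int row that closed the internal stretch had 2534, 2451 and 4989 reads. The 9 ERV1 rows of the run, that LTR17 among them, summed to 7232, 5838 and 13309 reads, a ratio of 0.92 for siStau1 DAC over siLuc DAC. Its 2 Alu rows had 416, 150 and 415 reads, lowest in siLuc DAC as well. HERVIP10F-int 14126, elsewhere in the table and beside an LTR10A, had 2637, 2418 and 5733 reads (0.98), so the same order of libraries was seen there.

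Among LTR families MER52A had the most reads by far: 77732, 63758 and 82572 reads. MER52D had 22512, 20278 and 22659 reads and MER52C 12225, 10068 and 13251. MER52 LTRs are 2.07% of the LTR elements here, yet they held 22.9% (22.7% to 23.0%), 15.4% (15.3% to 15.6%) and 16.4% (16.3% to 16.5%) of the LTR reads. Their share was thus lower in both DAC libraries, whatever the scaling.

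Element by element, MER52 LTRs stood below the other LTRs with DAC. The median ratio was −0.50 over 385 MER52A elements (−0.65 to −0.38), 113 of them higher, −0.68 over 88 MER52C elements (−1.11 to −0.21) and −0.34 over 130 MER52D elements (−0.55 to −0.08). The median of the other 7152 LTR elements was 0.79. For MER52A the difference from the median of all LTR elements here was −1.18 on the log2 scale, which no scaling changes, while under the authors' library factors its own median was 0.39. In siStau1 DAC over siLuc DMSO, MER52A had a median of −0.16 (−0.21 to −0.10), MER52C −0.08 (−0.26 to 0.06) and MER52D −0.26 (−0.37 to −0.19), against 0.54 for the other LTR elements. The authors' factors turned MER52A to 0.40 there as well. For siStau1 under DAC, the MER52A median was 0.36 (0.20 to 0.48) and that of the other LTR elements −0.17. MER52C had 0.43 (0.10 to 0.89) there, while MER52D, at 0.02 (−0.18 to 0.13), was near 0. Of 306 MER52A elements with at least 20 reads in siLuc DMSO and in siStau1 DAC, 36 (11.8%) had 0 reads in siLuc DAC. Without these, the MER52A medians were −0.39 with DAC and 0.20 for siStau1 under DAC.

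**Figure D3:**
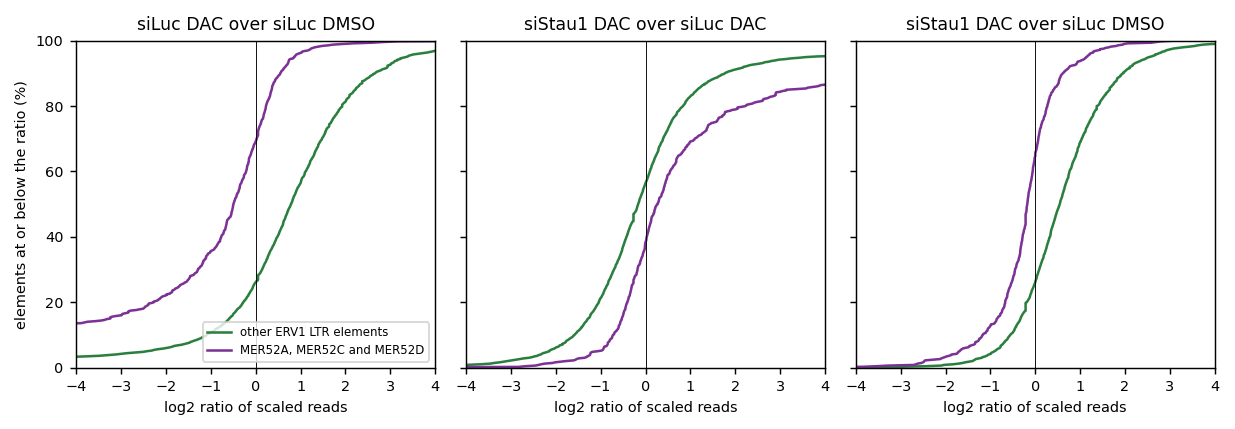
Cumulative share of elements (y axis, %) at or below a log2 ratio of scaled J2 reads (x axis) for MER52A, MER52C and MER52D elements together and for the other ERV1 LTR elements. In both comparisons with siLuc DMSO the MER52 curve lies to the left of the other curve, and in siStau1 DAC over siLuc DAC it lies to the right. The MER52D median alone was 0.02 in the latter.

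LTR8, LTR17, LTR10C and MER50 followed MER52A in abundance, with MER52D between the last 2 of them. LTR8, which flanks HUERS-P1, had 21821, 23288 and 32207 reads. LTR17, the LTR of HERV-W, had 19965, 17775 and 33714, with a DAC ratio of −0.12 and a siStau1 ratio under DAC of 0.66. The LTR17 element numbered 3555, which stands a short way from an LTR7 in the table, accounted for much of this, with 7695, 7456 and 15010 reads. Yet 104 of 169 LTR17 elements were higher in siStau1 DAC than in siLuc DAC (median 0.22), against 4060 of 9050 LTR elements (44.9%). MER50 had 17953, 17528 and 23942 reads, LTR78 13275, 17049 and 20842, LTR1A2 13155, 11143 and 17388, and LTR78B 9546, 13045 and 14927. Of these, LTR1A2 was lower in siLuc DAC than in siLuc DMSO, over its sum (−0.19) and over its elements (72 of 163 higher, median −0.16).

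The highest DAC ratios among LTR families under the same limits were those of LTR24C (110, 579 and 821 reads, 2.44), LTR37B (672, 2288 and 1334, 1.82), MER57D (212, 630 and 535, 1.62), LTR37A (614, 1793 and 1388, 1.60) and MER57E1 (231, 672 and 448, 1.59). LTR24C differed from the others in that siStau1 DAC was its highest library, and 9 of its 10 compared elements were higher in siLuc DAC. For LTR37B, 28 of 29 elements were higher (median 2.24). The lowest were LTR9A1 (2715, 1506 and 2939 reads, −0.80), LTR1 (1926, 1297 and 2003, −0.52), MER48 (1354, 932 and 1732, −0.49), LTR1B (4778, 3735 and 5751, −0.30) and MER52A (−0.23). In all 5 siLuc DAC had the fewest reads, and under the authors' factors all 5 DAC ratios were above 0. Over elements, 3 of the 5 had a median opposite in sign to their sum: LTR9A1 (18 of 31 elements higher with DAC, median 0.27), LTR1 (16 of 25, 0.21) and LTR1B (23 of 44, 0.03). For MER48 10 of 29 were higher (−0.53), and MER52A is given above.

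The highest LTR families for siStau1 under DAC were LTR9A1 (0.70), LTR17 (0.66), MER48 (0.63), LTR10F (1654, 1505 and 2729 reads, 0.59) and MER61E (601, 660 and 1155, 0.54). Over elements, LTR9A1 (16 of 34 higher, median −0.05) and MER61E (4 of 11, −0.13, with up to 46.8% of its reads on 1 element) were opposite in sign to these sums, while MER48 (23 of 32, 0.53) and LTR10F (17 of 31, 0.29) were not. The lowest were LTR37B (−1.05), MER57E1 (−0.85), MER50C (253, 452 and 310, −0.81), LTR15 (351, 876 and 634, −0.73) and LTR24 (340, 817 and 602, −0.71). The highest in siStau1 DAC over siLuc DMSO were LTR24C (2.68), MER34C_ (308, 817 and 822 reads, 1.20), LTR29 (625, 1549 and 1612, 1.15), MER57D (1.12) and LTR37A (0.96), and the lowest, all above 0 under the authors' factors, MER52D (−0.21), LTR1 (−0.16), MER52A (−0.13), LTR9A1 (−0.10) and MER52C (−0.10). Thus 3 of the 5 lowest were MER52 families.

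In 25 families with at least 1000 reads, 11 of 57 internal and 14 of 182 LTR families, a single element held at least 50% of the reads of at least 1 library. In some of them, such as MER101 (52.8%, 22.8% and 33.3%), this was so in 1 library only. LTR10C, an LTR family known to carry binding sites of the p53 protein, had 18904, 21649 and 28405 reads. Its element numbered 4720 held 9904, 10634 and 14568 of them, and the next row of the table, numbered 3916, another 5658, 6317 and 9052. LTR10C elements as such were higher with DAC (66 of 80, median 1.23), well above the ratio of the sum (0.25). LTR6A had 6071, 20936 and 12020 reads, of which element 260 held 5287, 18990 and 10518, a DAC ratio of 1.90 (1.83 to 1.96). MER57A-int had 7970, 13488 and 13518 reads, of which element 1061 held 6111, 8748 and 9020. MER65C element 1480 held 1363, 3218 and 2518 of that family's 2473, 6004 and 5224 reads. In all 4 families siLuc DMSO was lowest in scaled reads, although over reads outside SINE the LTR10C sum had a DAC ratio below 0.

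Internal regions were set against the LTRs of their own lineage in 42 lineages that had both. In 41 of them both had at least 200 reads in each pair, HERV-Fc2 being the exception. The internal log2 ratio was above that of the LTRs in 21 of 41 lineages with DAC, in 18 for siStau1 DAC over siLuc DAC and in 21 for siStau1 DAC over siLuc DMSO. The median differences were 0.02, −0.06 and 0.02, so neither side was higher as a rule. Single lineages differed widely. MER101-int stood 1.87 above its LTRs with DAC, and those LTRs had 1855, 2018 and 2873 reads. In siLuc DMSO 1 element held 52.8% of MER101 reads, and 1 held 60.9% of MER101B reads. Over elements these LTRs were higher with DAC as well (medians 0.77 for MER101 and 0.93 for MER101B, against 2.33 for MER101-int). The internal region of HUERS-P3 stood 0.81 above its LTRs, that of LTR25 0.75, that of LTR49 0.63 and that of MER61 0.60. On the other side, LTR38-int (132, 69 and 205 reads) stood −2.03 from its LTRs and HERV-Fc1-int −1.87. The internal region of HERV-S71, whose LTRs include the LTR6A element above, stood −1.63 from its LTRs. That of HERV30 stood −1.34 from its own, with only 5 LTR30 elements compared. For siStau1 under DAC, HERV-W had a ratio of summed reads of 0.05 for its internal region and 0.66 for LTR17. MER52 had 1.28 for its internal region and 0.06 for its LTRs. Element medians lay closer together, at 0.16 for HERV17-int and 0.22 for LTR17. For MER52-int the element median was 0.39, against 0.36 for MER52A, 0.43 for MER52C and 0.02 for MER52D.

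**Figure D4:**
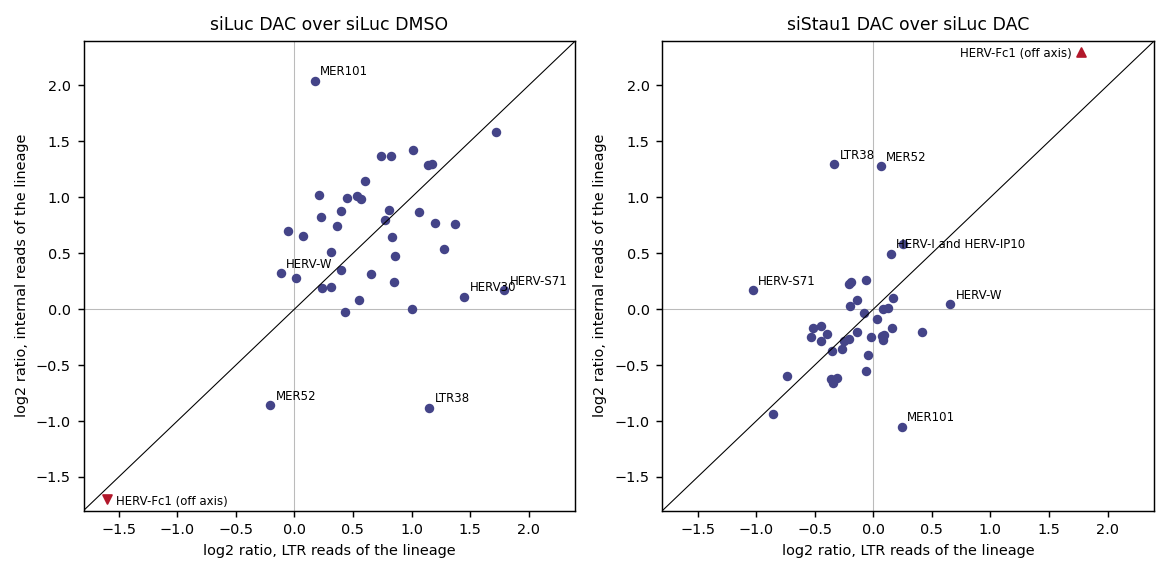
Log2 ratio of the summed internal reads of a lineage (y axis) against that of its summed LTR reads (x axis), 1 point per lineage, with the line of equal ratios and HERV-Fc1, whose internal ratio lies beyond the axis, drawn at its edge. With DAC most lineages lie above 0 on both axes, MER52 (above 0 under the authors' factors) and HERV-Fc1 lie below 0 on both, and LTR38 lies below 0 on the y axis only.

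LTRs that stood within 5 rows of an internal region of their lineage numbered 8960, and 70266 stood apart. This split was chosen after the data were seen. A read was seen in 17.1%, 16.6% and 20.4% of the near LTRs and in 18.3%, 18.3% and 21.8% of the others. The median DAC ratio was 0.62 for both (0.50 to 0.77 over 526 near LTRs and 0.58 to 0.66 over 4787 others). In siStau1 DAC over siLuc DAC it was 0.01 for near LTRs (−0.10 to 0.08) and −0.13 for the others (−0.16 to −0.09). In siStau1 DAC over siLuc DMSO it was 0.55 (0.44 to 0.63) and 0.39 (0.35 to 0.42) in the same order.

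Internal elements directly between 2 LTRs of their lineage, as in an undivided provirus, numbered 246, and 145 of these trios had a read. In 16 trios with at least 1000 reads, the internal element took most of the reads of the trio in 13; in MER57-int 5554, HUERS-P3-int 1298 and MER50-int 1718 the LTRs did. HERV3-int 51583 had 2574, 3186 and 4637 reads, beside an LTR4 with 138, 259 and 307 reads and another with 30, 72 and 50. The 3 rows were thus lowest in siLuc DMSO together. HERVIP10FH-int 36621 had 2253, 1401 and 4261 reads, with 97, 49 and 195 in the LTR10F before it and 0 in that after it. HERVE_a-int 65164 had 1517, 1505 and 2127 reads and HERVE-int 43955 had 1209, 1402 and 1682.

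In 4 of the 16 trios the internal element had far fewer reads in siLuc DAC than in both other libraries. HERV-Fc2-int 58570 had 6617, 0 and 5473 reads, and its LTRs had 10, 0 and 5 and 115, 0 and 55 reads. HERV-Fc1-int 40543 had 3963, 371 and 5257 reads, HERVIP10FH-int 33421 had 817, 2 and 1519, and HERV1_I-int 72211 had 527, 4 and 825. The LTR10F before HERVIP10FH-int 33421 had 114, 0 and 226 reads, whereas the LTRs of HERV-Fc1-int 40543 had 42, 2 and 36 before it and 1, 5 and 7 after it. Of the 16 internal elements 9 were higher with DAC, and 15 were higher in siStau1 DAC than in siLuc DMSO.

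**Figure D5:**
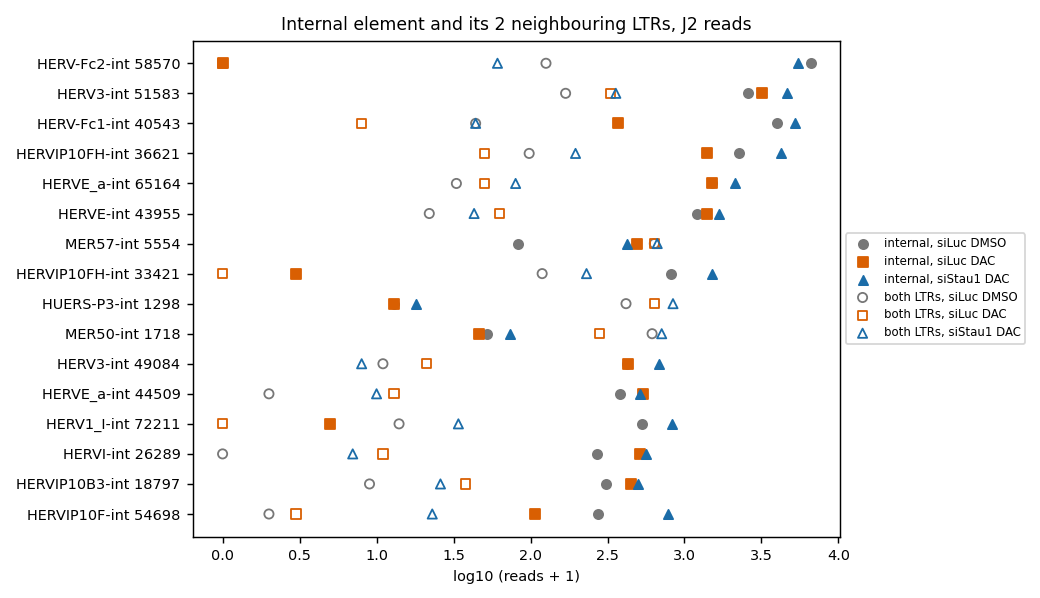
J2 reads, as log10 of reads + 1 (x axis), of the 16 internal elements with an LTR of their lineage directly on each side and at least 1000 reads in the trio (filled symbols) and of both LTRs together (open symbols), by library. HERV-Fc2-int 58570, HERVIP10FH-int 33421 and HERV1_I-int 72211 have at most 4 reads in siLuc DAC.

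Such gaps in siLuc DAC were more frequent in these families than over all repeats. Of 1120 internal elements with at least 20 reads in siLuc DMSO and in siStau1 DAC, 46 (4.11%) had 0 reads in siLuc DAC, and of 3622 LTR elements 217 (5.99%), where 2.15% of all repeat elements did. ERVL (4.76%) and ERVL-MaLR elements (5.18%) had similar shares and the ERV1 families left out here a higher one (10.4%). MER52A had 36 such elements, LTR78 18 of 153 and LTR1A2 14 of 120, among them LTR1A2 5366 with 573, 0 and 360 reads. MER52-int 7622 had 389, 0 and 731 reads and MER52-int 31971 had 227, 0 and 486. The reverse, 0 reads in siLuc DMSO and at least 20 in both DAC libraries, was seen in 4 of 1237 internal (0.323%) and 18 of 4104 LTR elements (0.439%), against 0.202% of all elements. The highest of these was MER4D1 5557, with 0, 94 and 27 reads. With siStau1 DAC as the library at 0, the numbers were 0 of 961 internal and 0 of 3054 LTR elements, against 0.00420% of all. In 1 library, few starting molecules and a missing transcript cannot be told apart.

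Total RNA gives genes, not repeats, as 1 FPKM value per group in the authors' deposited table, so no spread can be given. Of 15 listed symbols for genes derived from endogenous retroviruses 9 were in that table. ERVE-1, ERVV-1, ERVV-2 and ERVFRD-1 had no q-value there. Of the others 1, ERVH48-1, was called at a q-value under 0.05 (0.00162 for DAC in either siRNA arm). Which repeat families ERVH48-1 belongs to was not looked up, and a family described above can be among them. In the authors' deposited table ERV3-1 had 4.34 and 2.51 FPKM in siLuc cells (DMSO, then DAC) and 1.95 and 2.51 in siStau1 cells (q-value 0.660 for DAC in siLuc). ERVMER34-1, an envelope gene of the MER34 lineage, had in the same order 8.20, 7.21, 10.7 and 7.22 FPKM in the authors' deposited table. ERVW-1, which encodes syncytin-1, had 0.157, 0.978, 0.00645 and 0.597 FPKM there (authors' deposited q-value 0.496 for DAC in siLuc). In ERV3-1, ERVMER34-1 and ERVW-1, unlike ERVH48-1, total RNA thus gave no called DAC difference. The files do not tie the genes to single elements of the J2 tables.

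The target and the cell type were checked in the authors' deposited table. STAU1 had 35.5 and 33.7 FPKM in siLuc DMSO and siLuc DAC, and 30.0 and 27.1 in the siStau1 groups, with no call between arms (q-values 0.767 with DMSO and 0.685 with DAC in that table). The mRNA therefore differed little between the siRNA arms. Epithelial markers of the authors' deposited table included EPCAM and KRT18, which differed in opposite directions with DAC. EPCAM had 259 and 117 FPKM in siLuc cells and 338 and 179 in siStau1 cells (DMSO, then DAC). KRT18 had 681 and 3469, and 509 and 2415. The authors' deposited q-values in siLuc were 0.0157 for EPCAM and 0.0773, no call, for KRT18. In siStau1 they were 0.0905, no call, and 0.0348. PTPRC, a leukocyte marker, had at most 0.820, PECAM1, an endothelial marker, at most 0.777 and MYL1, a muscle marker, at most 0.0994. PTPRC was called with DAC in siStau1 and PECAM1 in siLuc (authors' deposited q-value 0.00162 for each). VIL1 and CEACAM5, other colon markers, were at most 0.198 and 0.186. Some mesenchymal markers had higher values with DAC in the authors' deposited table. VIM had 1.08 and 44.4 FPKM in siLuc cells and 1.21 and 31.4 in siStau1 cells (authors' deposited q-value 0.00162 in each arm). COL1A1 had 1.59 and 8.60, and 0.826 and 5.65. Its authors' deposited q-value was 0.0587 in siLuc, no call, and 0.0201 in siStau1. Their part in the J2 values was not tested.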

How the data were processed

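The J2 tables give, per the file headers, 1 value per repeat element and library and a ratio; the deposited ratio is a score, the logarithm to base 1.5, and was not used further. The deposited siLuc DMSO column holds counts plus 1, and the deposited signal of siLuc DAC and siStau1 DAC is the count plus 1 times a factor of 1.92 or 1.27, whose origin is not given in the sources used here. After division 100% of values were whole to within 0.001. Totals on repeats were 71473124, 68944777 and 83037330 reads. HISAT2 2.1.0, featureCounts, DESeq 1.36.0, Cuffdiff 2.2.1 and hg38 are named, without roles, in the submitters' processing notes; how reads that match several copies were counted is not given in the sources used here, so similar elements are uncertain. FPKM, p-values and q-values of total RNA are the authors' own, in the deposited Cuffdiff table.

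Even read numbers outnumbered odd ones (11625 against 3713 elements with 2, 4 or 6 against 1, 3 or 5 reads in siLuc DMSO), so intervals of shares and single elements take each 2 reads as 1 draw. Intervals cover 95%, and a count of 0 allows up to 3 reads. With 1 library per group no test was made. Named families are the 10 of each kind with most reads, the 5 highest and 5 lowest ratios of each kind and comparison (at least 1000 reads, top element under 50%), and the 5 most abundant families led by 1 element; single elements and runs beyond the most abundant were chosen after their values were seen. Members, lineages and lists were chosen with earlier results of these data known. The ratio code was tested on simulated data. Python 3.11.15, numpy 2.4.6, pandas 2.3.3 and scipy 1.17.1 were used.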

Additional observations from a re-analysis of the deposited data

Results flagged for a closer look

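Rows whose class is given as ERV1 with a question mark were outside the naming rule and entered no comparison. Their 1580 elements in 3 families had 1890 reads in the siLuc DMSO library (0.00264% of its reads on repeats, 95% bounds 0.00248% and 0.00282%). Those of siLuc DAC had 2628 (0.00381%, 0.00361% to 0.00402%), and siStau1 DAC had 3006 (0.00362%, 0.00344% to 0.00381%). Each is above the 3 reads that a count of 0 allows.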

How the results depend on the processing

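No paired analysis was possible because each J2 group is 1 library and no test was made. Leaving out a replicate was not possible for the same reason. Every setting named here changes the values by its own construction (another total, another set of elements or families); further causes were not tested. Under the authors' factors the element medians were 1.61, −0.47 and 1.12 for internal and 1.56, −0.46 and 1.03 for LTR elements (siLuc DAC over siLuc DMSO, siStau1 DAC over siLuc DAC, siStau1 DAC over siLuc DMSO), and MER52A turned to 0.39 in the first and 0.40 in the last. Families at least 2-fold higher then numbered 224, 3 and 178, those at least 2-fold lower 2 and 12 in the first 2 comparisons, and 30 were higher in the second. Scaled to reads outside SINE, the medians were 0.41, 0.083 and 0.47 for internal and 0.36, 0.094 and 0.37 for LTR elements, so the second turned its sign. There 30 families were at least 2-fold higher and 8 at least 2-fold lower in the first comparison, and 170 were higher and 0 at least 2-fold lower in the second. Shares of reads outside SINE were 0.634%, 0.723% and 0.857% for internal and 1.78%, 1.84% and 2.12% for LTR families. With at least 100 reads the first medians were 0.64 (internal) and 0.42 (LTR), and the last LTR median 0.27. With at least 10 reads the LTR medians were −0.10 (second) and 0.52 (last). With 2 reads added they were 0.64 (first) and 0.43 (last). With at least 1000 reads per family, 2 families were at least 2-fold lower in the first comparison, 3 at least 2-fold higher in the second and 3 in the last. Without elements at 0 in 1 library, the internal share was 0.234% in siLuc DMSO and 0.342% in siStau1 DAC, the LTR share 0.676% and 0.858%, the internal share of these ERV1 reads 25.7% and 28.5%, and the LTR medians 0.71 (first) and −0.16 (second). Without the top element of each family, that internal share was 23.4%, 26.9% and 26.5%. The median log2 ratio of internal over LTR reads in a lineage turned from below 0 to 3.39, 2.90 and 3.41 when only LTRs near an internal region were counted. This alternative, the summing of rows that share a family and number, and the settings for MER52A were chosen after seeing the data. Low read numbers limit most elements: only 6.04% of internal and 6.36% of LTR elements had enough reads for the first comparison.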
